A study of Mus musculus with 18 samples.

Results

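Pre-mRNA splicing factor and heterogeneous nuclear ribonucleoprotein (hnRNP) genes were followed through 18 mouse expression arrays of spermatocytes and testes. Members were all probe sets whose mouse gene symbol begins with Srsf, Sf3a, Sf3b or Prpf and a digit, or with Snrp, Hnrnp or U2af. The rule used the symbol alone and found 52 genes among the 15780 named genes of the array. They comprise 10 Srsf genes, 7 Snrp genes, 8 Sf3a and Sf3b genes, 12 Prpf genes, 14 Hnrnp genes and U2af1l4. Of these, Srsf3, Hnrnpm and Hnrnpll, lie on chromosome 17, and 0 lie on chromosome 16 or X.

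Introns are removed by the spliceosome, which is built anew on each intron from small nuclear ribonucleoproteins (snRNPs) and many further proteins. Sm proteins, encoded by Snrp genes, form the ring around the spliceosomal small nuclear RNAs, the SF3 proteins hold the branch site, and the PRPF proteins assemble, activate and remodel the complex. SR proteins, encoded by Srsf genes, bind exons and mostly promote splice site use, whereas hnRNP proteins coat nascent transcripts and often repress it. The mouse testis is known for an unusually large variety of alternatively spliced transcripts, and much of its meiotic and postmeiotic transcription starts during pachytene, the long stage of meiotic prophase in which homologous chromosomes are paired along their length.

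The sorted cells were pachytene spermatocytes from males aged 2 months, separated by flow cytometry. Pre-mid-pachytene spermatocytes came from males of the strain C57BL/10J-Ttf+/+T43H (n = 3), and from C57BL/10J-t12+/+T43 males (n = 3). Fertile C57BL/10J males gave mid-late-pachytene spermatocytes (n = 2) and pre-mid-pachytene spermatocytes (n = 2). Whole testes freed of the tunica were taken at 15 days from Ttf+/+T43H males (n = 3), t12+/+T43 males (n = 3) and C57BL/6J males (n = 2). T43H is a reciprocal translocation between chromosomes 16 and 17, and t12 is a t haplotype, a variant form of part of chromosome 17; all carriers have a translocation chromosome and no control does. The series title asks what extending unsynapsed autosomal chromatin does in meiosis. In the testis comparison the carriers are on C57BL/10J and the controls are C57BL/6J, so translocation, haplotype and strain background cannot be told apart there. In the sorted cells the strain is shared. Every carrier has the translocation together with Ttf or t12, so these cannot be told apart against C57BL/10J either.

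Values are log2 GCRMA expression levels, and a level of 4 was taken as the lower limit of a usable signal. Replicate arrays of a group correlated at 0.963 to 0.999 over all named genes. The members' SD over replicates had a median of 0.34 in Ttf+/+T43H and 0.31 in t12+/+T43 pre-mid-pachytene cells, against 0.19 and 0.12 in the mid-late and pre-mid cells of C57BL/10J and 0.05 to 0.07 in the testis groups. The estimated array weight was lowest in 2 carrier arrays. Ttf+/+T43H replicate 2 was the lowest of its group for 34 of 51 members and t12+/+T43 replicate 2 for 28 of 51, and their estimated array weights were 0.127 and 0.203, against 0.585 to 4.124 for the other sorted arrays. These 2 arrays also had the largest gaps between the 3′ and 5′ control probes of Gapdh, 3.91 and 3.98, against 2.51 to 3.80 in the other sorted arrays. All 9 pachytene markers on the array were above 4 in every sorted array. Spermatid markers were also present, at a mean level of 9.45 to 9.93 in Ttf+/+T43H, 4.96 to 7.23 in t12+/+T43 pre-mid-pachytene cells, 8.43 to 8.96 in C57BL/10J mid-late-pachytene cells and 11.2 to 11.9 in C57BL/10J pre-mid-pachytene cells.

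**Figure D1:**
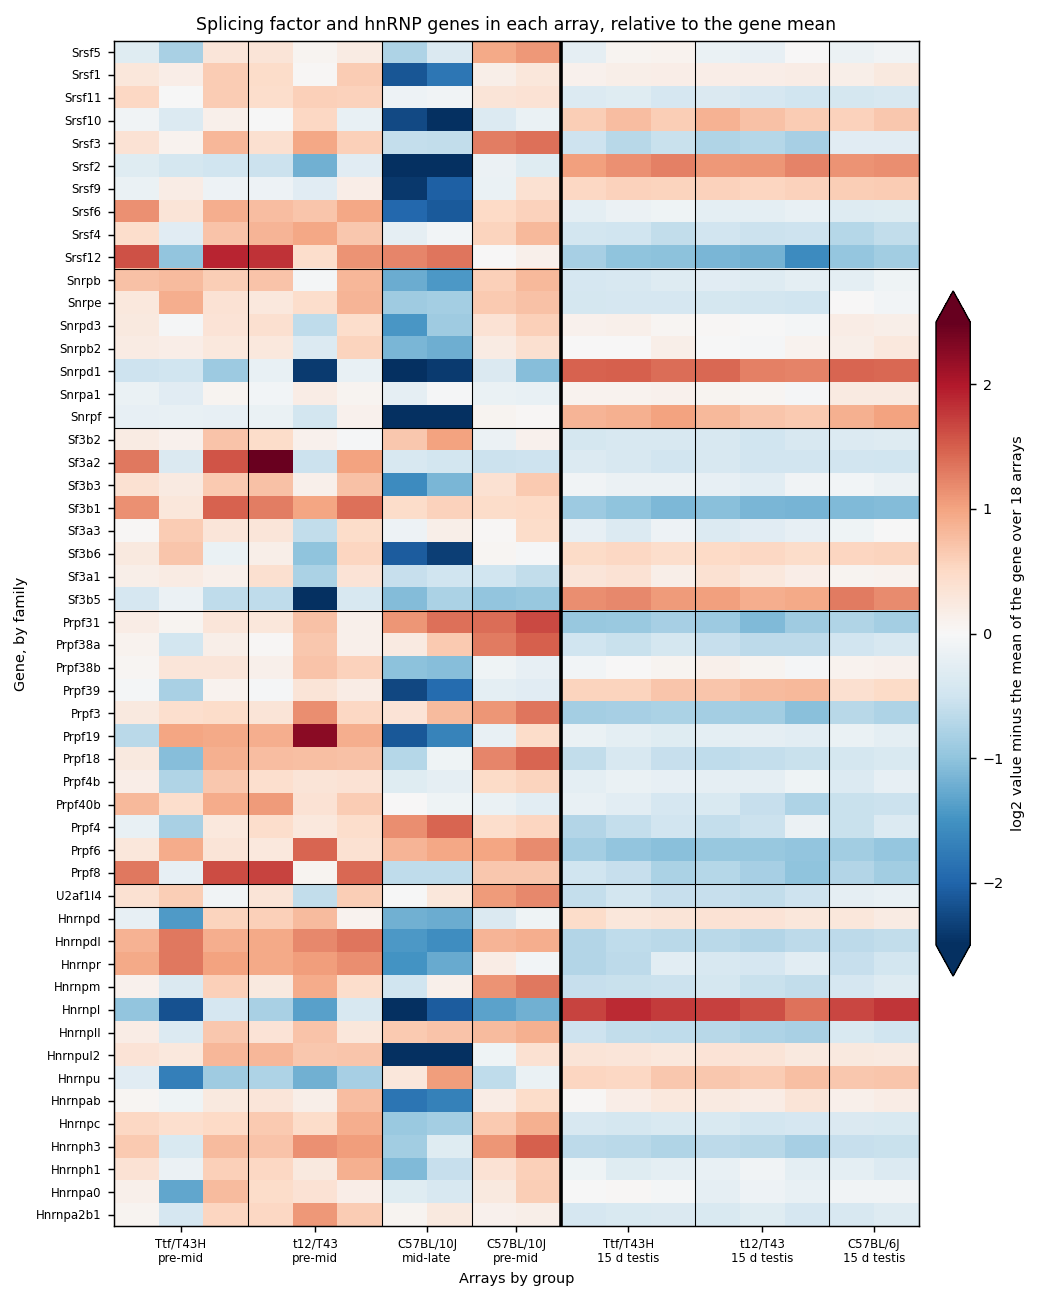
Levels of the 52 members (rows, by family) in the 18 arrays (columns, by group), as log2 level minus the gene's mean over the 18 arrays. The C57BL/10J mid-late-pachytene columns hold the lowest mean of the 4 sorted groups for 35 of the 51 members tested there.

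The first question was how the splicing genes of fertile C57BL/10J males change between the pre-mid and mid-late stages of pachytene. Of 51 members tested, 28 fell and 1 rose in mid-late-pachytene cells (limma, adjusted p under 0.05). Over all 9666 genes tested, 56.5% were called, 26.2% higher and 30.3% lower. The share of members called was therefore close to the background, and their direction was mostly downward. The median change was -1.31 log2 units over the members and -0.11 over all genes, and 41 of 51 members had a change below 0. When each array was centred on its own median, the medians were -1.03 and 0.18, and 24 members fell and 3 rose. In 40 members both mid-late arrays lay below both pre-mid arrays, as did 46.4% of all genes.

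Of 10 SR protein genes 7 fell, and the median change over the 10 was -2.06. Srsf6, which promotes inclusion of weak exons, had levels of 9.08 and 8.93 in mid-late-pachytene cells, against 11.52 and 11.61 in pre-mid-pachytene cells. It fell 5.92-fold, by 2.57 ± 0.29 log2 units (adjusted p = 9.36e-05). Srsf2, an SR protein long used as a marker of nuclear speckles, had 6.98 and 6.93 in mid-late-pachytene cells, against 9.50 and 9.35 in pre-mid-pachytene cells. Its change was -2.47 ± 0.31 (adjusted p = 0.000164). Srsf9, Srsf10, Srsf1, Srsf3 and Srsf5 also fell, by 2.33, 2.23, 2.19, 1.93 and 1.58 log2 units. Srsf3, the smallest SR protein and an adaptor for mRNA export, had 10.67 and 10.64 in mid-late-pachytene cells, against 12.54 and 12.64 in pre-mid-pachytene cells. In each of these 7 genes the groups did not overlap. Srsf12 was the SR gene with the opposite sign, at 5.37 and 5.50 in mid-late-pachytene cells, against 4.17 and 4.29 in pre-mid-pachytene cells, a change of 1.201 ± 0.86 that did not pass (adjusted p = 0.266).

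All 5 Sm ring genes on the array, Snrpb, Snrpd1, Snrpd3, Snrpe and Snrpf, fell. Snrpf had levels of 5.63 and 4.85 in mid-late-pachytene cells, against 8.19 and 8.16 in pre-mid-pachytene cells. It fell 7.65-fold, by 2.93 ± 0.30 log2 units (adjusted p = 5.38e-05). Snrpe had 13.35 and 13.39 in mid-late-pachytene cells, against 14.89 and 14.98 in pre-mid-pachytene cells, a change of -1.56 ± 0.29 (adjusted p = 0.00162). Among the 2 Snrp genes for U2 snRNP proteins, Snrpb2 fell by 1.48 log2 units and Snrpa1 had 11.19 and 11.39 in mid-late-pachytene cells, against 11.25 and 11.23 in pre-mid-pachytene cells. The Snrpa1 groups overlapped, with a change of 0.05 ± 0.22.

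The SF3 genes were divided. Sf3b6, whose product contacts the branch site adenosine, had 9.67 and 9.39 in mid-late-pachytene cells, against 11.80 and 11.73 in pre-mid-pachytene cells, and Sf3b3 had 9.49 and 9.92 in mid-late-pachytene cells, against 11.45 and 11.71 in pre-mid-pachytene cells. Both fell, by 2.23 ± 0.48 and 1.88 ± 0.30 log2 units. Sf3b2 was the only member of the list that passed as higher, at 10.53 and 10.87 in mid-late-pachytene cells, against 9.71 and 9.96 in pre-mid-pachytene cells (0.87 ± 0.29, adjusted p = 0.0321). Sf3b1, the largest SF3b subunit, overlapped between the stages, with 12.76 and 12.87 in mid-late-pachytene cells, against 12.76 and 12.80 in pre-mid-pachytene cells. Over the 7 SF3 genes tested the median change was 0.02. Sf3a2 was below 4 in all but 1 sorted array and was not tested.

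Of 12 Prpf genes 5 fell. Of the 5 that encode proteins of the U4/U6 and U5 snRNPs (Prpf3, Prpf4, Prpf6, Prpf8 and Prpf31), 0 passed. Of these 1 had an unadjusted p under 0.05, as did 5901 of all 9666 genes. Prpf19, a ubiquitin ligase of the activated spliceosome, had 9.98 and 10.43 in mid-late-pachytene cells, against 11.92 and 12.55 in pre-mid-pachytene cells (-2.03 ± 0.65, adjusted p = 0.0256). Prpf39, Prpf18, Prpf38a and Prpf38b fell by 1.84, 1.74, 0.95 and 0.88 log2 units. Prpf8, the scaffold of the catalytic core, had a change of -1.30 ± 0.66 that did not pass (adjusted p = 0.126). Prpf4 had 6.90 and 7.19 in mid-late-pachytene cells, against 6.16 and 6.26 in pre-mid-pachytene cells, a change of 0.83 ± 0.33 (adjusted p = 0.0623). U2af1l4, a paralogue of the small U2AF subunit that reads the 3′ splice site, had 9.48 and 9.76 in mid-late-pachytene cells, against 10.55 and 10.68 in pre-mid-pachytene cells, and did not pass (-0.997 ± 0.41, adjusted p = 0.0658).

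Of 14 hnRNP genes 8 fell, with a median change of -1.36 over the 14. Hnrnpul2, a relative of Hnrnpu, showed the largest change of all members, with 7.23 and 7.58 in mid-late-pachytene cells, against 10.40 and 10.88 in pre-mid-pachytene cells. It fell 9.38-fold, by 3.23 ± 0.28 log2 units (adjusted p = 2.24e-05). Hnrnpdl had 9.40 and 9.29 in mid-late-pachytene cells, against 11.70 and 11.76 in pre-mid-pachytene cells (-2.38 ± 0.24). Hnrnpab, Hnrnph3, Hnrnpc, Hnrnpr, Hnrnpm and Hnrnph1 fell by 2.08, 1.89, 1.65, 1.44, 1.40 and 1.31 log2 units. Hnrnpu, a nuclear scaffold protein that binds RNA and chromatin, ran the other way, with 12.15 and 12.92 in mid-late-pachytene cells, against 11.23 and 11.70 in pre-mid-pachytene cells. Its change of 1.07 ± 0.46 did not pass (adjusted p = 0.0783).

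**Figure D2:**
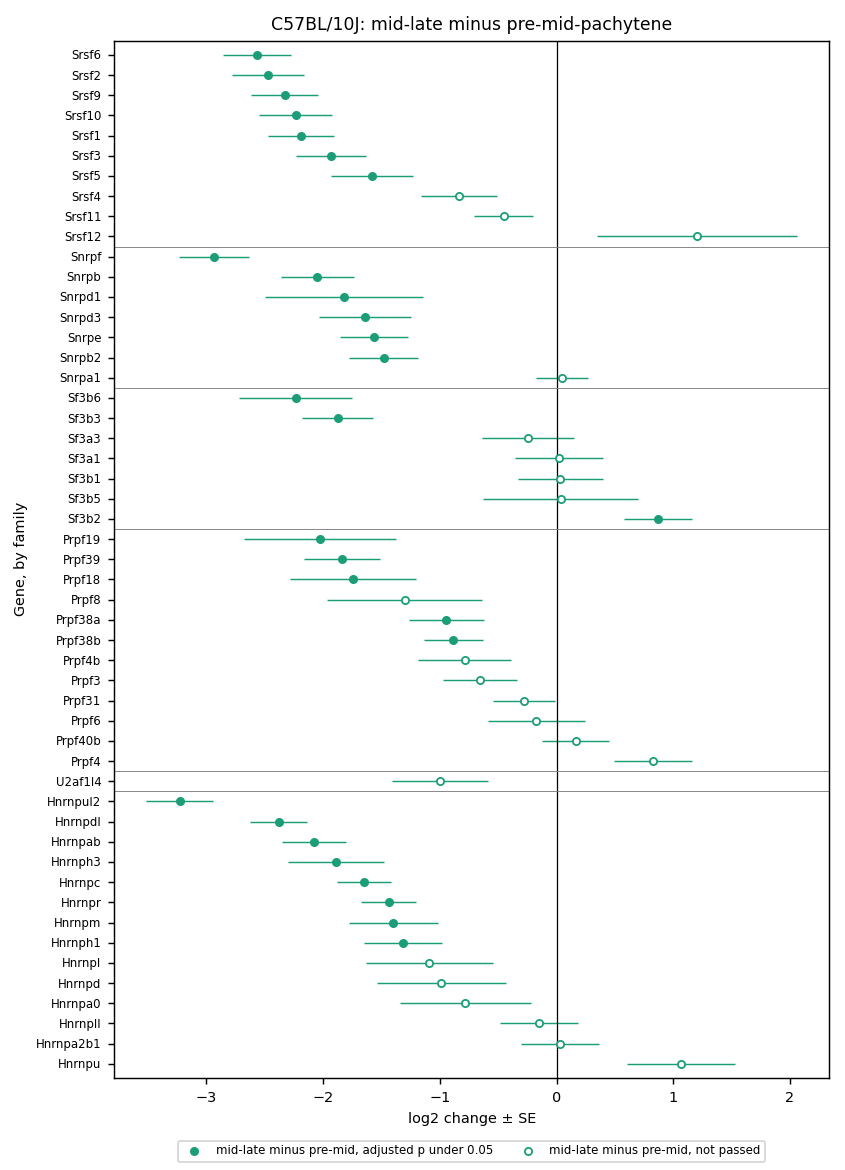
Log2 change, mid-late minus pre-mid pachytene of C57BL/10J males (n = 2 each), for the 51 members tested, by family, with SE from the limma fit; filled points have an adjusted p under 0.05. The filled points lie left of 0 in 28 members and right of 0 in Sf3b2.

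Of the 29 calls, 20 held in each of the 4 fits that left out 1 array of the comparison, and all 29 kept their sign. The calls of Sf3b2, Snrpd1, Prpf19, Prpf38a and Prpf38b were lost in all 4 fits, and those of Hnrnph1, Hnrnpm, Prpf18 and Snrpd3 in 1 to 3. The cell populations differed in other markers as well. Of 6 spermatogonial and preleptotene markers, 6 were below 4 in both mid-late arrays (mean level 2.78 to 2.95), whereas 4 were above 4 in both pre-mid arrays (5.79 to 6.27). Of 9 Sertoli markers, 5 were below 4 in the mid-late arrays (mean level 4.01 to 4.07) and 3 in the pre-mid arrays (6.34 to 6.37). The spermatid markers ran at 8.43 to 8.96 in the mid-late arrays and 11.2 to 11.9 in the pre-mid arrays. The 5 Leydig markers ran at 3.21 to 3.75 in the mid-late arrays and 3.998 to 5.80 in the pre-mid arrays. The 3′ minus 5′ gap of the actin control probes was 3.51 and 3.38 in the mid-late arrays, against 2.49 and 2.51 in the pre-mid arrays. Their part in the splicing gene changes was not tested.

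The promoters of 3 members are printed to set genes with large falls, Snrpf and Srsf6, beside Hnrnpu, whose change had the opposite sign. Promoters were taken from RefSeq (GRCm38.p6), 250 bases before to 30 bases after the transcription start, 5′ to 3′ on the gene's strand. Capitals mark matches to the CCAAT box (CCAAT, bound by NF-Y), the ETS motif (CCGGAAG) or the TATA box (TATAAA) on either strand. Snrpf is at chr10:93589629-93589908 on the minus strand, Srsf6 at chr2:162931258-162931537 on the plus strand and Hnrnpu at chr1:178337786-178338065 on the minus strand. The start that the promoter table lists for Hnrnpu lies inside the gene's annotated span, so this stretch is not upstream of the whole gene.
Snrpf: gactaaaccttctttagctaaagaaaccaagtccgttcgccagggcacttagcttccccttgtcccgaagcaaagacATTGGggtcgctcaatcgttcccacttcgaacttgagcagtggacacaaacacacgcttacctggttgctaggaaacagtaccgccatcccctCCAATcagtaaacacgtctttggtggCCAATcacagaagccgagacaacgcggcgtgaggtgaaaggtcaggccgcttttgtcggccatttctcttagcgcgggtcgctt
Srsf6: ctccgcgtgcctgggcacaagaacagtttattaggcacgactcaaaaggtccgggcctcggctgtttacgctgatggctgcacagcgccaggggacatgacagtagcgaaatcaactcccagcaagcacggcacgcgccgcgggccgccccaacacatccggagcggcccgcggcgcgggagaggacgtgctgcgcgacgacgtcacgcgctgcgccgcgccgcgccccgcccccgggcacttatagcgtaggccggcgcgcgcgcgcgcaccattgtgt
Hnrnpu: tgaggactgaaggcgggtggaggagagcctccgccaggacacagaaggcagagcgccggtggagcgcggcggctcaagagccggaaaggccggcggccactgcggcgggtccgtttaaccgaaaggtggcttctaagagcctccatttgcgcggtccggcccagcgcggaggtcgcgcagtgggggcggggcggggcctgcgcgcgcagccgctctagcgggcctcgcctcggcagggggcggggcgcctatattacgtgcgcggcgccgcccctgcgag
Snrpf holds 3 CCAAT boxes, starting at positions -173, -80 and -54 from the start site, and the other two hold no match.

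Of the 52 members, 46 had a promoter entry. Their median GC content was 60.9%, against 58.6% for the 12585 promoters of array genes and 52.5% for 27025 promoters in all, and they held a median of 23 CpG dinucleotides, against 16 and 7. The ETS motif was found in 15 of 46 (32.6%), against 13.6% of array gene promoters and 8.7% of all promoters. The NRF1 motif was found in 15.2%, against 7.84% and 4.57%. A CCAAT box was found in 21 of 46 (45.7%), against 37.4% and 36.6%. Among the members that fell in mid-late-pachytene cells it was present in 14 of 24, and among the other tested members in 7 of 21. The TATA box was found in 5 of 24 that fell and 0 of 21 others, and in 9.46% of array gene promoters. The ETS motif ran the other way, in 6 of 24 that fell and 8 of 21 others, and the NRF1 motif was in 4 and 2. The other motifs searched, those of ZBTB33, YY1 (AAGATGGC) and the cyclic AMP response element (TGACGTCA), were present in 1, 1 and 0 of the 46, against 0.842%, 2.91% and 2.72% of array gene promoters. These shares are descriptions of the sequences and were not tested.

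The second question was whether splicing genes differ in pre-mid-pachytene cells of translocation carriers. Few members passed the test. In Ttf+/+T43H cells 2 of 51 members fell, Prpf31 and Prpf38a, where 2.06% of all genes were called (0.59% higher, 1.47% lower). In t12+/+T43 cells 3 of 51 were called, Prpf31 and Prpf38a lower and Hnrnpr higher, where 9.07% of all genes were called (3.24% higher, 5.83% lower). The carriers were set against the same pair of C57BL/10J arrays, so the comparisons are not independent. The members' median change was -0.10 in both, against 0.01 over all genes for Ttf+/+T43H and 0.06 for t12+/+T43. Without adjustment 11 and 9 of 51 members had p under 0.05, beside 1731 and 2133 of all 9666 genes.

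Prpf31, a U4/U6 snRNP protein that the tri-snRNP needs to assemble, had 10.14, 10.02 and 10.27 in Ttf+/+T43H cells and 10.23, 10.68 and 10.08 in t12+/+T43 cells, against 11.35 and 11.60 in C57BL/10J cells. All 6 carrier arrays lay below both control arrays. The change was -1.34 ± 0.24 for Ttf+/+T43H (2.53-fold lower, adjusted p = 0.0346) and -1.14 ± 0.24 for t12+/+T43 (2.21-fold lower, adjusted p = 0.0219). Prpf38a, a protein of the activating spliceosome, had 11.08, 10.52 and 11.13 in Ttf+/+T43H cells and 11.02, 11.65 and 11.11 in t12+/+T43 cells, against 12.29 and 12.48 in C57BL/10J cells. It fell by 1.47 ± 0.29 (2.77-fold, adjusted p = 0.0456) and by 1.12 ± 0.29 (2.17-fold, adjusted p = 0.0498). Its mid-late-pachytene levels, 11.22 and 11.65, were also below the pre-mid controls. Those of Prpf31 were 11.05 and 11.34, the higher just below the lower control at 11.35, and Prpf31 was not called between the stages.

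Hnrnpr, an hnRNP that also takes part in mRNA transport in neurons, had 13.44, 13.83 and 13.51 in Ttf+/+T43H cells and 13.45, 13.54 and 13.67 in t12+/+T43 cells, against 12.69 and 12.44 in C57BL/10J cells. The groups did not overlap. It rose in t12+/+T43 cells by 0.99 ± 0.22 (1.99-fold, adjusted p = 0.0244), and its change of 1.03 ± 0.22 in Ttf+/+T43H cells did not pass (adjusted p = 0.053). In mid-late-pachytene cells it had 11.01 and 11.24.

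The promoters of these 3 genes are shown because they are the members called here. Prpf31 is at chr7:3629735-3630014 on the plus strand, Prpf38a at chr4:108579307-108579586 on the minus strand, and Hnrnpr, the first of 2 listed starts, at chr4:136310692-136310971 on the plus strand, all in GRCm38.p6.
Prpf31: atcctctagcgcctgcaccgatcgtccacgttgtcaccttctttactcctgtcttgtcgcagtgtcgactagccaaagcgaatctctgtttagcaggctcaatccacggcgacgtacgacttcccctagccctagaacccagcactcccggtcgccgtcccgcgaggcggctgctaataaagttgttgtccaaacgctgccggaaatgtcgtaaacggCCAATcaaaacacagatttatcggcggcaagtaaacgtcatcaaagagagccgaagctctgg
Prpf38a: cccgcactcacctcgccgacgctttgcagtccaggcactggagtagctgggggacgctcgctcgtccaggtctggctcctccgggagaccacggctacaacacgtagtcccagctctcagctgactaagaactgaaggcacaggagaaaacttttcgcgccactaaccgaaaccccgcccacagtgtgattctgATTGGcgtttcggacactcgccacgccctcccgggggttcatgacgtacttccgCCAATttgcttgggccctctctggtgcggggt
Hnrnpr: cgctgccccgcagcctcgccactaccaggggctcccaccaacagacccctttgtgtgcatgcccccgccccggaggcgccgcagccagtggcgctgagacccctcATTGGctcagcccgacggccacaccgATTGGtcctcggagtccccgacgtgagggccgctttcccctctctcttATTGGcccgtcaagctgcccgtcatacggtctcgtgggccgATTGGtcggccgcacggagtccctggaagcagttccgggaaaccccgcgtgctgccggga
Each holds at least 1 CCAAT box, at -32 in Prpf31, at -56 and -2 in Prpf38a, and at -145, -119, -71 and -30 in Hnrnpr.

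The 3 chromosome 17 members lay below both controls in all 6 carrier arrays, and 0 passed. The same was so of 8 of 51 members and 13.7% of all genes, and 3 members and 13.3% of all genes lay above both controls in all 6. Srsf3 had 11.62, 11.35 and 12.09 in Ttf+/+T43H cells and 11.66, 12.23 and 11.87 in t12+/+T43 cells, against 12.54 and 12.64 in C57BL/10J cells, with changes of -0.90 ± 0.27 (adjusted p = 0.135) and -0.67 ± 0.27 (adjusted p = 0.191). Hnrnpm, a regulator of alternative exons, had 12.34, 11.85 and 12.82 in Ttf+/+T43H cells and 12.46, 13.15 and 12.65 in t12+/+T43 cells, against 13.35 and 13.54 in C57BL/10J cells, with changes of -1.11 ± 0.35 (adjusted p = 0.146) and -0.69 ± 0.35 (adjusted p = 0.295). Hnrnpll, known as a regulator of Ptprc splicing in lymphocytes, had changes of -0.66 ± 0.30 (adjusted p = 0.299) and -0.39 ± 0.30 (adjusted p = 0.531). Among all 470 chromosome 17 genes tested, 18 were called lower and 0 higher in Ttf+/+T43H cells, and 73 lower and 3 higher in t12+/+T43 cells.

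**Figure D3:**
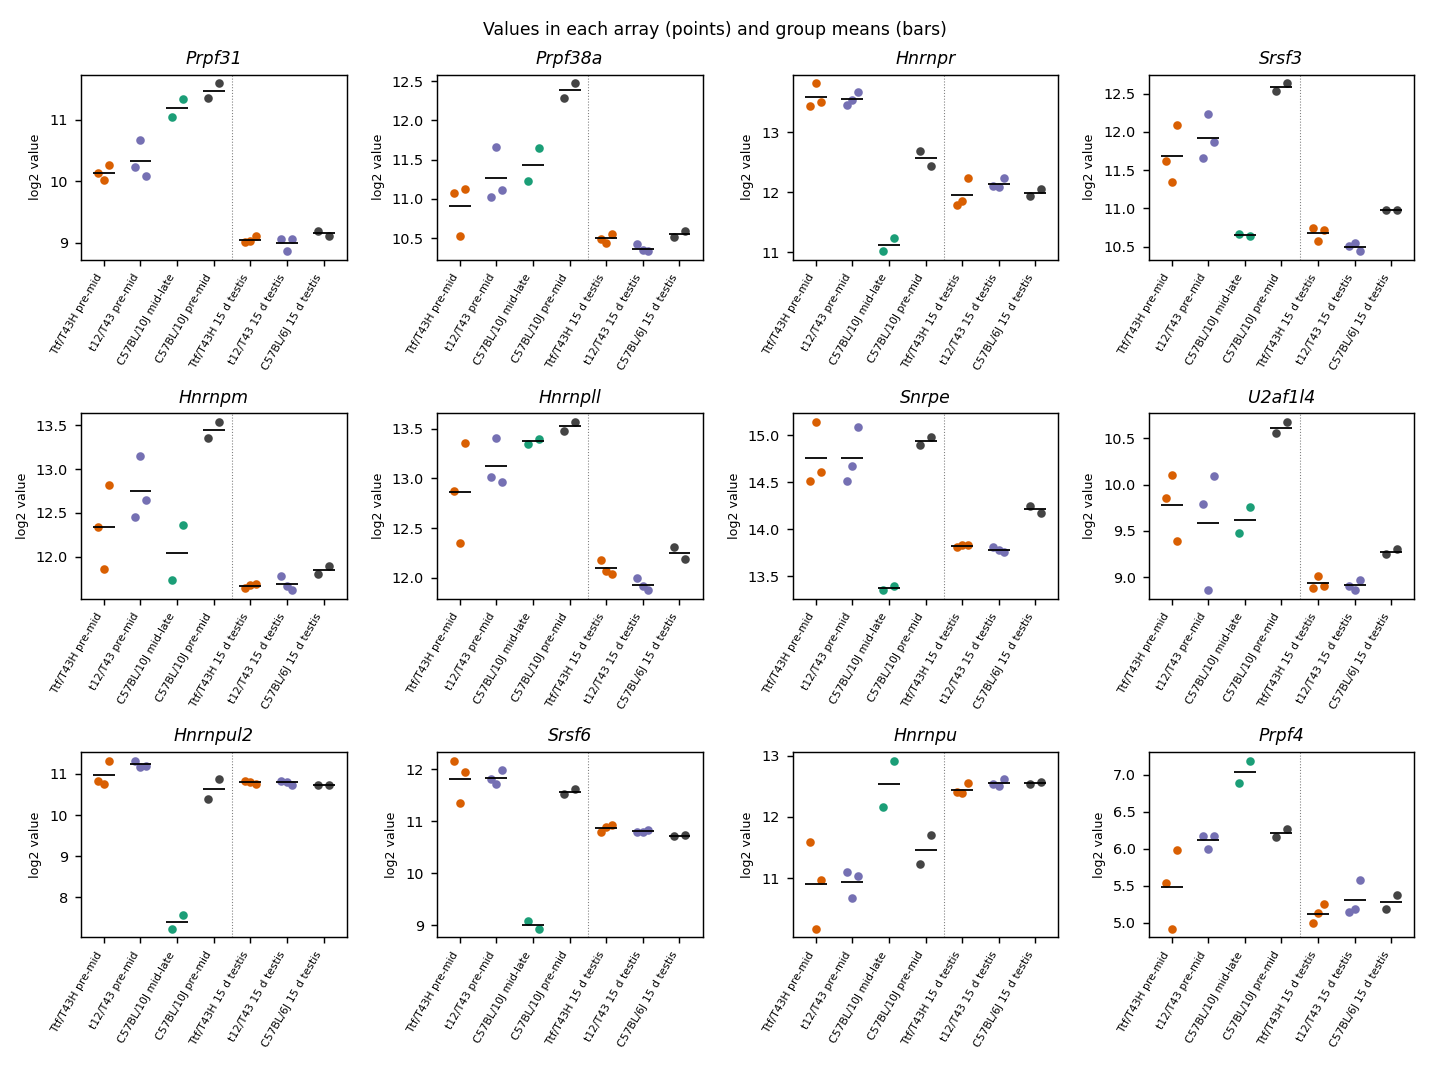
Log2 level of 12 members in each of the 18 arrays; points are arrays, horizontal bars group means, and groups run from Ttf+/+T43H and t12+/+T43 to C57BL/10J in sorted cells, then testes. Prpf31 and Prpf38a lie lower, and Hnrnpr higher, in all 6 carrier pre-mid-pachytene arrays than in the C57BL/10J pre-mid-pachytene arrays.

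These calls rest on few arrays. Both Ttf+/+T43H calls were lost in 4 of the 5 fits that left out 1 array of the comparison, the exception being the fit without Ttf+/+T43H replicate 2, and both were lost when arrays were centred on their medians. Each t12+/+T43 call held in 1 of 5, the fit without t12+/+T43 replicate 2. Without these 2 arrays together, an alternative added after the data were seen, 13 members were called in Ttf+/+T43H cells, 6 higher and 7 lower, and 12 in t12+/+T43 cells, 6 higher and 6 lower, where 18.4% and 28.7% of all genes were called. In that fit Prpf31 changed by -1.27 ± 0.18 in Ttf+/+T43H and -1.32 ± 0.18 in t12+/+T43 cells, and Prpf38a by -1.28 ± 0.19 and -1.32 ± 0.19. Srsf3 fell by 0.73 ± 0.20 (adjusted p = 0.047) and 0.82 ± 0.20 (adjusted p = 0.023), and Hnrnpm fell in t12+/+T43 cells by 0.89 ± 0.27 (adjusted p = 0.0448). In that fit the tri-snRNP genes moved in opposite directions. Prpf3 fell by 0.87 and 0.79 and Prpf6 by 0.77 and 0.75, whereas Prpf8 rose by 0.80 and 0.90. Sf3a1, Sf3b1, Prpf40b and Srsf12 rose as well, Sf3b1 by 0.82 and 0.84 and Srsf12 by 1.67 and 1.39. Of Sf3a1, Sf3b1, Prpf40b and Srsf12, only Prpf40b lay above both controls in both arrays left out. These tri-snRNP genes, Sf3a1, Sf3b1, Prpf40b and Srsf12 were not called with all arrays in the fit.

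Markers of some other cells moved with these comparisons. The 5 Leydig markers ran at a mean level of 6.93 to 8.31 in Ttf+/+T43H and 8.03 to 10.6 in t12+/+T43 cells, against 3.998 to 5.80 in C57BL/10J pre-mid-pachytene cells. Sertoli markers ran at 6.93 to 7.29 and 7.17 to 8.203 in Ttf+/+T43H and t12+/+T43 cells, against 6.34 to 6.37 in C57BL/10J cells, with 3 of 9 (Amh, Gata4 and Dhh) below 4 in every array. For spermatogonial and preleptotene markers the levels were 6.06 to 8.58 and 5.89 to 7.03, against 5.79 to 6.27. Peritubular and endothelial markers did not rise, at 5.55 to 5.67 and 4.87 to 5.14, against 5.37 to 6.28. The spermatid markers, given above, were lower in the carriers, with 5 of 9 above 4 in every t12+/+T43 array, against 9 of 9 in Ttf+/+T43H and C57BL/10J arrays. The 3′ minus 5′ gap of the Gapdh probes was 3.26 to 3.98 in the carrier arrays, against 2.86 and 2.93 in the C57BL/10J pre-mid-pachytene arrays. For the actin probes it was 3.06 to 4.41 in the carrier arrays, against 2.49 and 2.51 in the controls. Their part in the results was not tested.

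Carriers were also compared with each other. Of 51 members, 0 differed between t12+/+T43 and Ttf+/+T43H pre-mid-pachytene cells (limma), where 0.755% of all genes were called. An unadjusted p under 0.05 was found in 2 members and in 987 of all 9666 genes. Hnrnpa2b1, an abundant hnRNP that also sorts RNA into exosomes, averaged 13.39 ± 0.30 in t12+/+T43 and 12.71 ± 0.47 in Ttf+/+T43H cells (SD, n = 3 each), a difference of 0.68 ± 0.27 (adjusted p = 0.418). Prpf4 averaged 6.12 ± 0.10 in t12+/+T43 and 5.48 ± 0.54 in Ttf+/+T43H cells (0.64 ± 0.27, adjusted p = 0.474). Its groups were only narrowly apart, with 5.997 in the lowest t12+/+T43 array and 5.984 in the highest Ttf+/+T43H array. Ttf+/+T43H replicate 2, the array of lowest weight, had 4.92. A change of the t12+/+T43 minus Ttf+/+T43H difference between sorted cells and testes was tested as an interaction. It was called in 0 of 51 members and in 0.734% of all genes. The unadjusted p was under 0.05 in 1 member and in 812 of 10623 genes.

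Carrier pre-mid-pachytene cells were also set against C57BL/10J mid-late-pachytene cells, a comparison in which stage and genotype differ together. In Ttf+/+T43H cells 24 members were higher and 3 lower, where 60.3% of all genes were called (31.7% higher, 28.6% lower), and in t12+/+T43 cells 30 were higher and 3 lower, where 64.4% were called (34.2% higher, 30.2% lower). Both comparisons use the same mid-late arrays. The median change was 0.95 in Ttf+/+T43H and 1.27 in t12+/+T43 cells, against 0.13 and 0.16 over all genes. Hnrnpul2 had 10.83, 10.76 and 11.32 in Ttf+/+T43H cells and 11.32, 11.17 and 11.20 in t12+/+T43 cells, against 7.23 and 7.58 in mid-late-pachytene cells, 11.8-fold and 14.1-fold higher. The 3 lower members were Prpf4, Prpf31 and Hnrnpu in each comparison. Hnrnpu had 11.58, 10.17 and 10.98 in Ttf+/+T43H cells and 11.10, 10.67 and 11.04 in t12+/+T43 cells, against 12.15 and 12.92 in mid-late-pachytene cells, with changes of -1.63 ± 0.42 (adjusted p = 0.00908) and -1.60 ± 0.42 (adjusted p = 0.00921). Prpf31 changed by -1.06 ± 0.24 and -0.86 ± 0.24, so that its carrier arrays lay below the C57BL/10J arrays of both stages. The Hnrnpu and Prpf31 calls were lost in 1 of 5 fits with 1 array left out, the fit without mid-late replicate 2, and the t12+/+T43 call of Prpf4 in 4 of 5. The Leydig markers ran at 6.93 to 8.31 and 8.03 to 10.6 in Ttf+/+T43H and t12+/+T43 cells, against 3.21 to 3.75 in mid-late-pachytene cells. The Sertoli markers ran at 6.93 to 7.29 and 7.17 to 8.203, against 4.01 to 4.07, and the spermatogonial and preleptotene markers at 6.06 to 8.58 and 5.89 to 7.03, against 2.78 to 2.95. Their part was not tested.

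**Figure D4:**
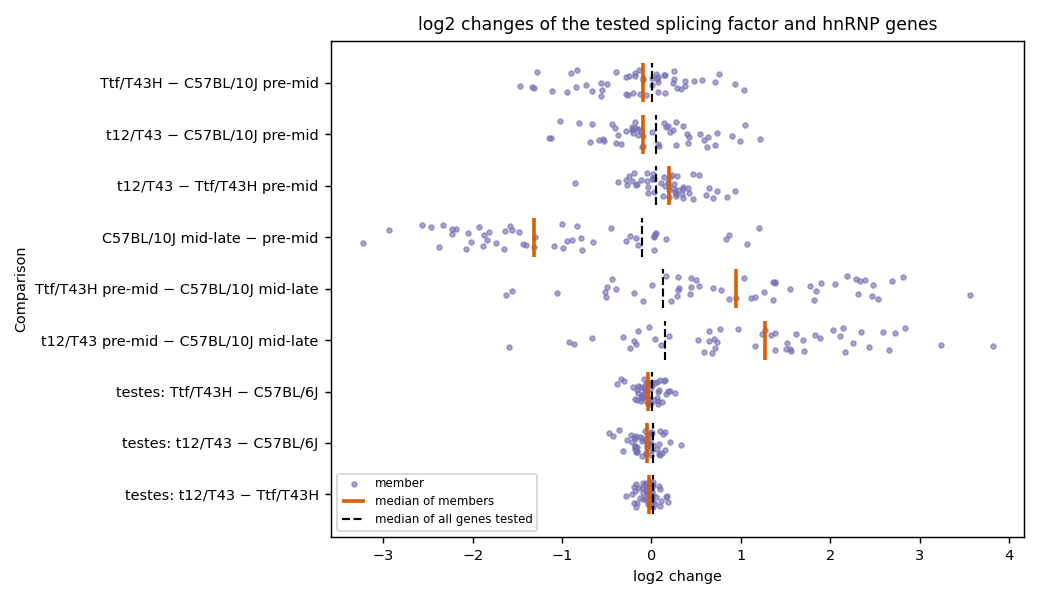
Log2 change of each tested member (points) in 9 comparisons, with the median of the members (orange) and of all genes tested (dashed). The member median departs most from that of all genes in the 3 comparisons that involve mid-late-pachytene cells, at -1.31, 0.95 and 1.27.

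In 15-day testes, before the first wave of spermatogenesis has made spermatids, the changes were small. A testis is a mixture of cell types, and fewer cells of a type and less RNA per cell cannot be told apart in it. In Ttf+/+T43H testes 3 of 50 members fell, where 8.56% of all genes were called (3.86% higher, 4.7% lower). In t12+/+T43 testes 7 fell and 1 rose, where 21.8% were called (10.5% higher, 11.3% lower). The members' share was below the background in both, and the same 2 C57BL/6J arrays served as controls. Median changes were -0.04 and -0.05, against 0.00 and 0.02 over all genes.

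Snrpe had 13.81, 13.83 and 13.83 in Ttf+/+T43H testes and 13.81, 13.78 and 13.75 in t12+/+T43 testes, against 14.25 and 14.17 in C57BL/6J testes. The 6 carrier arrays lay within 0.1 of each other and below both controls. It fell by 0.39 ± 0.05 (1.31-fold, adjusted p = 0.00451) and by 0.43 ± 0.05 (adjusted p = 0.0016). Srsf3 had 10.74, 10.57 and 10.71 in Ttf+/+T43H testes and 10.51, 10.55 and 10.44 in t12+/+T43 testes, against 10.98 in each C57BL/6J testis. It fell by 0.30 ± 0.07 (adjusted p = 0.0344) and by 0.48 ± 0.07 (1.39-fold, adjusted p = 0.00376). U2af1l4 had 8.88, 9.01 and 8.91 in Ttf+/+T43H testes and 8.91, 8.86 and 8.97 in t12+/+T43 testes, against 9.25 and 9.30 in C57BL/6J testes, and fell by 0.34 ± 0.06 (adjusted p = 0.0175) and 0.36 ± 0.06 (adjusted p = 0.00757).

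The promoters of Srsf3, at chr17:29032410-29032689 on the plus strand, and Snrpe, at chr1:133610251-133610530 on the minus strand (GRCm38.p6), are shown because their t12+/+T43 testis calls held whichever array was left out.
Srsf3: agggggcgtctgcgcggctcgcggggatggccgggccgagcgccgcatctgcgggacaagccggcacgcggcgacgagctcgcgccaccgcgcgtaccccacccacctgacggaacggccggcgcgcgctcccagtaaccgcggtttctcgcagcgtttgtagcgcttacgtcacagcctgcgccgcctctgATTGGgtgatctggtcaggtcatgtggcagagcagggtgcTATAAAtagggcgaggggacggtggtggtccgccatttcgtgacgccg
Snrpe: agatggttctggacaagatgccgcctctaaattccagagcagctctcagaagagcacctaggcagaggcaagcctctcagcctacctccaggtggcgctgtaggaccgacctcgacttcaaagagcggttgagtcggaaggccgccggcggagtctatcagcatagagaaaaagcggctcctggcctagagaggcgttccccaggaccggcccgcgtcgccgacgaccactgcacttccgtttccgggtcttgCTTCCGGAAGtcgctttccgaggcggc
Srsf3 holds a CCAAT box at -58 and a TATA box at -18, and Snrpe holds 2 overlapping ETS matches, on opposite strands, just after the start site.

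The other members called in t12+/+T43 testes moved by less than 0.35 log2 units. Hnrnpll, on chromosome 17, had 12.002, 11.91 and 11.87 in t12+/+T43 testes, against 12.31 and 12.19 in C57BL/6J testes (-0.32 ± 0.07, adjusted p = 0.0173). Of the genes for snRNP proteins, Sf3b5 fell by 0.28 ± 0.07 (adjusted p = 0.0265), Snrpa1 by 0.19 ± 0.05 (adjusted p = 0.0329) and Snrpd3 by 0.18 ± 0.05 (adjusted p = 0.0451). Prpf39 rose, with 8.71, 8.80 and 8.82 in t12+/+T43 testes, against 8.41 and 8.49 in C57BL/6J testes (0.33 ± 0.07, adjusted p = 0.0143). Prpf31 had 9.06, 8.86 and 9.06 in t12+/+T43 testes, against 9.19 and 9.11 in C57BL/6J testes, a change of -0.16 ± 0.08 that did not pass (adjusted p = 0.177), and Hnrnpr had a change of 0.15 ± 0.13 (adjusted p = 0.459). Hnrnpm, the remaining chromosome 17 member, had changes of -0.18 ± 0.06 in Ttf+/+T43H (adjusted p = 0.123) and -0.16 ± 0.06 in t12+/+T43 testes (adjusted p = 0.102). Among 453 chromosome 17 genes tested, 89 were called lower and 10 higher in Ttf+/+T43H testes, and 132 lower and 28 higher in t12+/+T43 testes.

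**Figure D5:**
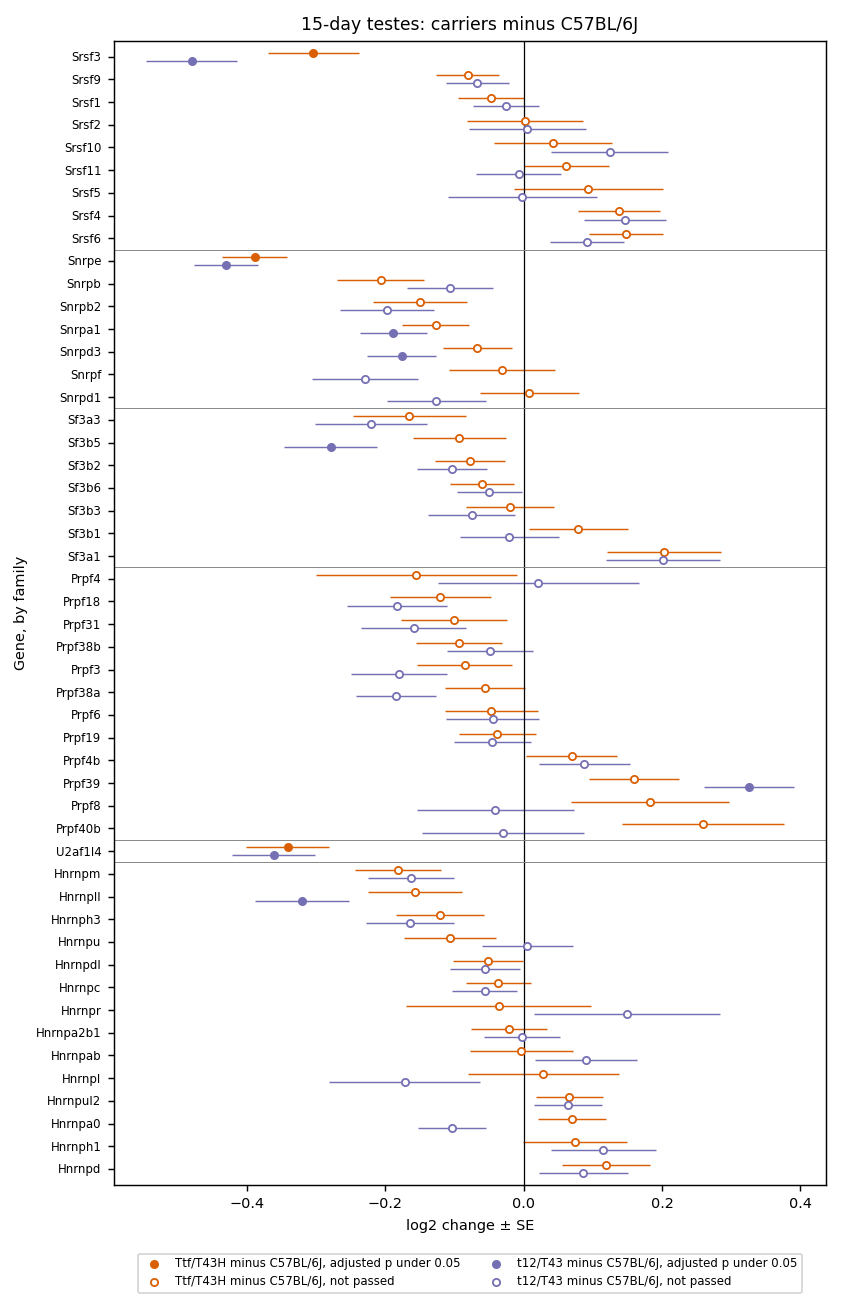
Log2 change in 15-day testes of Ttf+/+T43H and t12+/+T43 males (n = 3 each) minus C57BL/6J (n = 2) for the 50 members tested, with SE from the limma fit; filled points have an adjusted p under 0.05. Snrpe, U2af1l4 and Srsf3 are filled in both series, with changes of -0.30 to -0.48.

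Between t12+/+T43 and Ttf+/+T43H testes 0 of 50 members differed (limma), where 4.99% of all genes were called. An unadjusted p under 0.05 was found in 9 members and in 2364 of all 9134 genes. Among the members the smallest p belonged to Hnrnpa0. It averaged 12.04 ± 0.05 in t12+/+T43 and 12.21 ± 0.03 in Ttf+/+T43H testes (SD, n = 3 each, change -0.17 ± 0.04, adjusted p = 0.0678). Of the testis calls, Snrpe in Ttf+/+T43H and Snrpe and Srsf3 in t12+/+T43 held in each of the 5 fits that left out 1 array of the comparison. The Ttf+/+T43H calls of Srsf3 and U2af1l4 held in 2 and 3 of 5, and in t12+/+T43 testes U2af1l4 and Prpf39 held in 4, Hnrnpll in 3, Sf3b5 and Snrpa1 in 1 and Snrpd3 in 0. The pachytene markers ran at a mean level of 11.02 to 11.4 in Ttf+/+T43H and 10.5 to 10.9 in t12+/+T43 testes, against 11.3 to 11.5 in C57BL/6J testes, and all 9 spermatid markers were below 4 in every testis array. The 5 Leydig markers ran at 4.41 to 7.56 in Ttf+/+T43H and 4.99 to 7.60 in t12+/+T43 testes, against 7.43 to 8.21 in C57BL/6J testes. The part of these differences in the results was not tested.

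A list of 120 further splicing genes was followed beside the members, of which 106 were on the array. In mid-late against pre-mid-pachytene cells of C57BL/10J males, 42 of 100 tested fell and 5 rose, beside the 30.3% and 26.2% of all genes. Celf2, a regulator of alternative exons, had 4.21 and 3.35 in mid-late-pachytene cells, against 8.47 and 8.51 in pre-mid-pachytene cells (-4.71 ± 0.41, adjusted p = 2.23e-05). Ddx39b, an RNA helicase of early spliceosome assembly encoded on chromosome 17, Syncrip, a close relative of Hnrnpr, and Lsm6, of the ring on U6 RNA, fell by 2.83, 3.32 and 4.05 log2 units. Rbmx, the X-linked gene for hnRNP G, had 2.12 and 2.22 in mid-late-pachytene cells, below the limit of 4, against 5.69 and 6.86 in pre-mid-pachytene cells (-4.11 ± 0.69, adjusted p = 0.000966). The polypyrimidine tract binding genes did not pass, with changes of 0.18 ± 0.41 for Ptbp1 and -0.44 ± 0.35 for Ptbp2.

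In carrier pre-mid-pachytene cells, 0 of 100 were called for Ttf+/+T43H (limma), where 2.06% of all genes were called. An unadjusted p under 0.05 was found in 19 of them and in 1731 of all 9666 genes. For t12+/+T43 4 were called, Mbnl1 higher and Ddx39b, Dhx16 and Phf5a lower, where 9.07% of all genes were called. In testes 2 rose and 6 fell of 98 in Ttf+/+T43H males and 4 rose and 14 fell in t12+/+T43 males, where 8.56% and 21.8% of all genes were called. The 4 with the smallest p in each were on chromosome 17, namely Ppil1, Srpk1, Qk and Ddx39b in Ttf+/+T43H testes and Dhx16, Srpk1, Ddx39b and Ppil1 in t12+/+T43 testes. Srpk1, the kinase that phosphorylates SR proteins, fell by 0.54 ± 0.06 (adjusted p = 0.00335) and 0.58 ± 0.06 (adjusted p = 0.00138). Dhx16, the helicase that activates the spliceosome, separated the carriers from each other. It had 8.93, 8.90 and 8.83 in t12+/+T43 testes, against 9.97, 9.82 and 9.79 in Ttf+/+T43H testes, with no overlap (-0.97 ± 0.07, adjusted p = 0.00177), and 10.40 and 10.27 in C57BL/6J testes. Ptbp2 fell in t12+/+T43 testes by 0.35 ± 0.10 (adjusted p = 0.0436).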

How the data were processed

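The arrays measured expression in sorted spermatocytes and whole testes of 7 groups; groups and replicate numbers come from the sample titles, and the series' design describes biological replicates. Deposited values are log2 expression levels that the authors computed by GCRMA, per the submitters' processing notes, which name no version. Which arrays were normalized together is not given in the sources used here. Per the labels' protocols, small RNA amounts went through a 2-cycle biotin labelling. The table holds 16539 probe sets with 1 per gene; the 759 without a gene symbol were left out.

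Sorted cells (10 arrays, 9666 genes) and testes (8 arrays, 9134 genes) each had their own limma model (limma 3.58.1, R 4.3.3), with no covariates, on genes with a level of at least 4 in at least 2 arrays. The interaction used all 18 arrays and 10623 genes. The two-sided p-values received a Benjamini-Hochberg adjustment over all genes of the fit, and ± beside a change is the moderated SE. The fits were tested on simulated data. The number of arrays limits the precision; arrays give no read depth. The deviations of same-numbered replicates correlated at -0.347 to 0.677, not above 0.1 in every pair, so the numbers were not treated as pairing the samples. Both pairs were above 0.1 for Ttf+/+T43H and C57BL/6J testes (0.383 and 0.168) and for the C57BL/10J stages (0.167 each). Where both groups have 2 arrays these values are equal by construction and cannot decide on pairing.

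Any member could be named. Values in every array could be given, per comparison, for up to 5 of the largest rises and falls among called members whose groups do not overlap. They could also be given for members on chromosome 17 and for the 2 members of each family with the smallest p in a comparison. The text gives fewer. The members, gene lists and tests were chosen with earlier results of these data known. Promoters come from RefSeq's GRCm38.p6 table, in which 46 of 52 members matched. Alternatives were quantile normalization, median centring, array weights, a higher or no filter, a replicate block, 1 fit of all arrays, leaving out each array, and leaving out 2 carrier arrays together. The last was run for the 2 arrays of lowest weight, and also for Ttf+/+T43H replicate 2 with t12+/+T43 replicate 3. Counts for the second pair are not given here.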

Additional observations from a re-analysis of the deposited data

How the results depend on the processing

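With 2 or 3 arrays a group, a member that misses the threshold in the sorted cells is not shown to be unchanged, also for sizeable changes, and single arrays decide the calls in carrier pre-mid-pachytene cells. Among the called member changes, 0 turned sign under the alternatives run; uncalled changes were not followed. The counts of called members that moved by more than 1.5 times are given here, and the cause was not tested. For the comparisons that involve mid-late-pachytene cells, the ranges with 1 array left out moved by less and are given as well. For Ttf+/+T43H against C57BL/10J pre-mid-pachytene cells (2 called) the count was 0 with quantile normalization, 0 with median centring, 19 with array weights, 0 with the replicate block, 10 in the fit of all 18 arrays, 13 without both arrays of lowest weight and 0 to 3 with 1 array left out. For t12+/+T43 against the same cells (3 called) it was 15 with array weights, 0 with the replicate block, 9 in the fit of all arrays, 12 without both arrays of lowest weight and 0 to 5 with 1 array left out. For Ttf+/+T43H against C57BL/6J testes (3 called) it was 6 with array weights, 7 with the replicate block, 0 in the fit of all arrays and 1 to 3 with 1 array left out, and for t12+/+T43 testes (8 called) it was 0 in the fit of all arrays and 3 to 7 with 1 array left out. Between t12+/+T43 and Ttf+/+T43H testes (0 called) it was 1 with array weights, 5 with the replicate block and 0 to 1 with 1 array left out, and for the interaction (0 called) it was 1 with array weights and 0 with 1 array left out. For mid-late against pre-mid-pachytene cells (29 called) it was 20 to 24 with 1 array left out, and for Ttf+/+T43H and t12+/+T43 cells against mid-late-pachytene cells (27 and 33 called) it was 21 to 36 and 23 to 32. Same-numbered replicates correlated above 0.1 in some pairs and not in others, and a call lost with the block is not read as a weaker effect. Over all genes, the called counts for Ttf+/+T43H and t12+/+T43 pre-mid-pachytene cells were 199 and 877 of 9666. With array weights they were 3442 and 3184, and without both arrays of lowest weight 1764 and 2744 of 9568. For Ttf+/+T43H against C57BL/6J testes array weights gave 1698, against 782. Between the carrier testes they gave 1191, against 456, and for the interaction 544, against 78. For the replicate block, the fit of all arrays and the fits with 1 array left out, counts over all genes are not given here. Member counts there are not read as results about the members. Median centring moved the lower share of all called genes to 41.9% from 51.9% in t12+/+T43 against C57BL/6J testes, and to 66.5% from 78.5% between t12+/+T43 and Ttf+/+T43H testes. The array weights and both exclusions of 2 carrier arrays were set after the data were seen.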
